A study of Mus musculus with 2 samples.

Results

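The regions described here are the YY1 ChIP-seq peaks of muscle stem cells (MuSCs) that carry the full YY1 motif at their summit. The members were the peaks with at least 1 exact match to the 8-base motif AANATGGC, where N is any base, with both strands searched up to 100 bp on each side of the summit. By this rule 310 of the 4681 peaks in the list were members. A further 4368 peaks had no match, and 3 peaks with unknown bases in the reference window also had none. The rule used only the position of the summit and the reference sequence, not the height of the peak.

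YY1 is a zinc-finger protein of the nucleus that binds DNA through 4 zinc fingers and can activate or repress transcription. In other cell types it is known at the promoters of widely expressed genes, where its motif often lies just downstream of the start site, and as a protein that joins promoters and enhancers. The letters of the motif include ATGG, so a match in the right frame can also be the start codon of a protein and the base after it.

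The library was made from MuSCs of the hindlimb of Ctrl mice, pooled from 20 animals. Ctrl mice had the genotype Pax7CreERT2/R26YFP with both Yy1 alleles intact, on the mdx background, which lacks dystrophin. Ctrl mice of the study were given tamoxifen, as were its knockout mice, and the age of the 20 animals is not given in the sources used here. The cells were sorted by the reporter, whose recombination the Pax7-driven CreERT2 limits to Pax7-expressing cells. The study's text calls them freshly isolated, whereas the labels describe cultured cells and the design entry names WT MuSCs. The background library is named input in the labels, whereas the protocols name normal mouse IgG, and its reads were not analysed here. Each antibody has 1 library, so no spread between mice could be computed. No test between groups was possible, and all intervals below are 95% exact intervals that cover counting error only. A peak list holds no expression level, so markers of the cell type could not be checked.

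The height of a peak is given here as its fold enrichment, the ratio of fragments at the summit to the local background, each with 1 added. The number of fragments and the local background were recovered from the 2 values deposited for it, fold enrichment and p. The most frequent local background, 1.54 fragments, corresponds to a depth of 13357714 fragments. The study gives nearly this number as its uniquely mapping reads, from paired-end sequencing, so a fragment here may be a single read. Whether both mates of a pair were counted is not stated, and if they were, the intervals of fragments are too narrow. At this depth the median member rested on 15 fragments at its summit, so differences of a few fragments between single members were within counting error.

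The sequences of the 10 members with the highest fold enrichment are shown because the account of single peaks below starts from them. Positions of a match given below are those of the A of its ATG. Each line gives 30 bases of mm10, read 5′ to 3′ on the strand of the match, with the motif in capitals.
Thap4 (chr1:93754770-93754799, plus strand): gtctgtacggaAAGATGGCggcgccggagg
Mettl25 and Ccdc59 (chr10:105841488-105841517, plus strand): caccgtggaaaAAGATGGCgccttcgcggc
Arfgef1 (chr1:10232956-10232985, minus strand): cgtttcctctcAACATGGCgtccggggcag
Srr and Smg6 (chr11:74925902-74925931, plus strand): cagccgccgcgAAGATGGCggaggggttgg
Actr3 (chr1:125435658-125435687, plus strand): cgcggggagccAAGATGGCcgccgctgccg
Nelfa (chr5:33936294-33936323, plus strand): cgaggacccccAACATGGCggcacccgttg
Rer1 (chr4:155086338-155086367, plus strand): ctccagccgccAAGATGGCcgcggggcggg
Slain2 (chr5:72914368-72914397, plus strand): gggacggagggAAGATGGCtgccgaggccg
Gm10060 (chr8:19784732-19784761, plus strand): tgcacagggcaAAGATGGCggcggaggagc
Mia2 (chr12:59131046-59131075, minus strand): ttgtggccagaAAAATGGCccgcgacgcac

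The peak with the highest fold enrichment among the members, 11.04, had its summit inside the annotated spans of 2 genes (chr1:93754532-93755120). They are Thap4, a member of the THAP-domain family, and Atg4b, which encodes an autophagy protease. This peak held 27 fragments (exact Poisson interval 17.8 to 39.3) over a local background of 1.54, and its match lay 4 bp upstream of the nearest start site, of Thap4. The peak of Mettl25 and Ccdc59 (chr10:105841160-105841594) reached 10.1, with 29 fragments (19.4 to 41.6) over 1.98. The A of the ATG in its match lay at the summit itself and opened the start codon of Ccdc59. These intervals overlapped, so the order of both peaks was not resolved.

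Arfgef1, which encodes an exchange factor for ARF GTPases, had a fold enrichment of 9.63 with 25 fragments (16.2 to 36.9), and its match lay 301 bp upstream of the nearest start site. The peak shared by Srr, which encodes serine racemase, and Smg6, which encodes an endonuclease of nonsense-mediated decay, reached 8.75 with 23 fragments (14.6 to 34.5). Actr3, a subunit of the Arp2/3 complex that nucleates actin branches, had 30 fragments (20.2 to 42.8) over 2.55 and a fold enrichment of 8.74. In Actr3 the match lay in the 5′UTR and read against the gene. Nelfa, a subunit of the negative elongation factor that holds RNA polymerase II near start sites, reached 8.68 with 21 fragments (13.0 to 32.1).

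Rer1, which returns membrane proteins to the endoplasmic reticulum, and Slain2, a microtubule plus-end protein, both had 20 fragments (12.2 to 30.9) and a fold enrichment of 8.28. Mia2, which takes part in secretion from the endoplasmic reticulum, reached 8.10, also with 20 fragments. None of the 5 bases counted below was present at the Mia2 match. The gene model Gm10060 stood apart from these 9 peaks, with 80 fragments (63.4 to 99.6) over 8.89 in the background, which gave a fold enrichment of 8.19. Of the 32-base stretches in its summit window, 94.7% occur elsewhere in the assembled chromosomes, and whether repeated sequence sets its height was not tested.

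Over all members the fold enrichment ran from 1.49 to 11.04 with a median of 5.13 and quartiles of 4.34 and 6.31. The other peaks had a median of 5.10 with quartiles of 4.29 and 5.92, so the lower parts of both distributions lay close together. A fold enrichment of at least 5 was reached by 180 members, or 58.1% (interval 52.4% to 63.6%), beside a background of 53.9% of all peaks. A q-value under 0.01 was reached by 294 members, or 94.8% (91.8% to 97.02%), beside a background of 91.6%. Both shares were a few percentage points above the background, and the background share of 53.9% fell inside the members' interval whereas 91.6% fell just outside its own.

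The median number of fragments was 15 in members and 14 in the other peaks. The median width was 379 bp in members and 353 bp in the other peaks, and the medians of the local background were both 1.98. In the summit window the median GC content was 68.9% in members and 69.7% in the others, and both medians of the number of CG dinucleotides were 22. The fold enrichment reached 14.4 and the width 4308 bp in the other peaks, against 11.04 and 2013 bp in members. Read the other way, the motif was present in 42 of 806 peaks with a fold enrichment under 4, or 5.21% (3.78% to 6.98%). It was present in 42 of 555 peaks of at least 7, or 7.57% (5.51% to 10.1%), and in 52 of 565 peaks from 6 to under 7, or 9.20% (6.95% to 11.9%). From 4 to under 5 it was present in 88 of 1349 peaks, or 6.52% (5.26% to 7.98%). From 5 to under 6 it was present in 86 of 1403, or 6.13% (4.93% to 7.52%). The intervals of these ranges all overlapped.

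The base at the open position of the motif was unequal among the members. For the match nearest to the summit, G stood there in 168 members, or 54.2% (48.5% to 59.8%). A stood there in 69, C in 52 and T in 21. Equal windows placed 2000 bp from the summits, clear of any peak, held 321 windows with a match, and in 113 of these, or 35.2% (29.98% to 40.7%), the match nearest to the centre had G. Matches within 100 bp of protein-coding start sites that had no YY1 summit had G in 727 of 1583 cases, or 45.9% (43.4% to 48.4%). Such matches with a summit had G in 115 of 200 cases, or 57.5% (50.3% to 64.4%), and these intervals did not overlap. The interval in members lay above that of the windows 2000 bp away. It all but touched that of the start-site matches without a summit, although members also include matches away from these start sites. Both intervals overlapped when every match of the members was counted (53.4%, 47.8% to 58.9%) or without windows of repeated sequence (53.3%, 47.5% to 59.0%).

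The median fold enrichment was 5.38 in members with G, 5.13 with A, 4.92 with C and 5.04 with T. A fold enrichment of at least 5 was reached by 105 of the 168 members with G, or 62.5% (54.7% to 69.8%). It was reached by 38 of 69 with A (55.1%, 42.6% to 67.1%), by 26 of 52 with C (50%, 35.8% to 64.2%) and by 11 of 21 with T (52.4%, 29.8% to 74.3%). These intervals overlapped, and a difference in height between the 4 bases was not resolved. The plot of fold enrichment by base shows the same overlap.

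**Figure D1:**
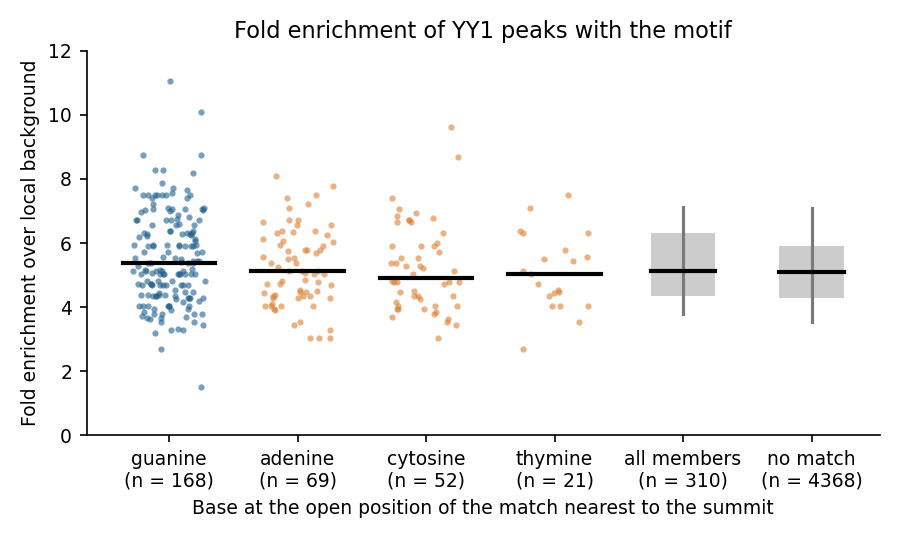
Fold enrichment over local background (y axis, linear) of each member, grouped by the base at the open position of the match nearest to the summit, with black lines at the medians. The grey boxes span the quartiles and the grey lines the 10th to 90th percentiles of all 310 members and of the 4368 peaks without a match. The medians by base run only from 4.92 to 5.38, and the point at 1.49 is a peak in repeated sequence.

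The bases around the match were also unequal. C stood directly before the motif in 171 of 310 members, or 55.2% (49.4% to 60.8%), and the 3 bases after it were G in 65.2%, G in 67.4% and C in 73.5%. In matches near protein-coding start sites without a summit, the same bases stood there in 40.6%, 49.9%, 50.3% and 47.9% of 1583 cases. Positions farther out differed as well. With the motif's first base as position 1, G stood at position 16 in 50% of the members and 34.4% of these matches. C stood at position -6 in 45.5% and 32.8%. The median GC content around start-site matches was 60.2% without a summit and 69.2% with one. The part of GC content in these differences was not tested. Next counted were the C before the motif, the G, G and C after it and the G at the open position. These 5 bases were chosen after the members' values were seen. All 5 were present in 30 members, or 9.68% (6.62% to 13.5%). They were present in 113 of the 1583 matches near start sites without a summit, or 7.14% (5.92% to 8.52%), and this interval overlapped that of the members. Among the 321 matches of the windows 2000 bp away all 5 were present in 1 case, or 0.312% (up to 1.72%). At most 2 of the 5 were present in 82 members (26.5%, 21.6% to 31.7%), in 824 of the 1583 (52.1%, 49.6% to 54.5%) and in 294 of the 321 (91.6%, 88.0% to 94.4%).

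Naca, which encodes a subunit of the nascent polypeptide-associated complex, was a member with all 5 bases and reached a fold enrichment of 7.56 with 21 fragments. Nipsnap2, which encodes a mitochondrial protein, also had all 5 and reached 7.49 with 18 fragments. The median fold enrichment was 5.70 in the 30 members with all 5 bases, 5.05 with 4, 5.40 with 3, 5.38 with 2, 4.34 in the 18 members with 1 and 5.13 in the 7 members with none. The medians thus did not rise steadily with the number of these bases.

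Along the distance from the summit the matches were not gathered tightly. The median distance of the nearest match was 43.5 bp, with quartiles of 21.3 and 70 bp. Over all 4681 peaks, matches occurred at 0.392 per 1000 bases within 24 bp of the summit, at 0.338 from 75 to 99 bp and at 0.372 from 125 to 149 bp. They fell to 0.197 per 1000 bases from 200 to 224 bp and to 0.131 from 475 to 500 bp. With G at the open position the frequency fell from 0.227 to 0.0616 per 1000 bases between the innermost and the outermost of these distances, and with another base from 0.166 to 0.0698. The limit of 100 bp therefore cut through a region in which matches were about as frequent on both sides.

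**Figure D2:**
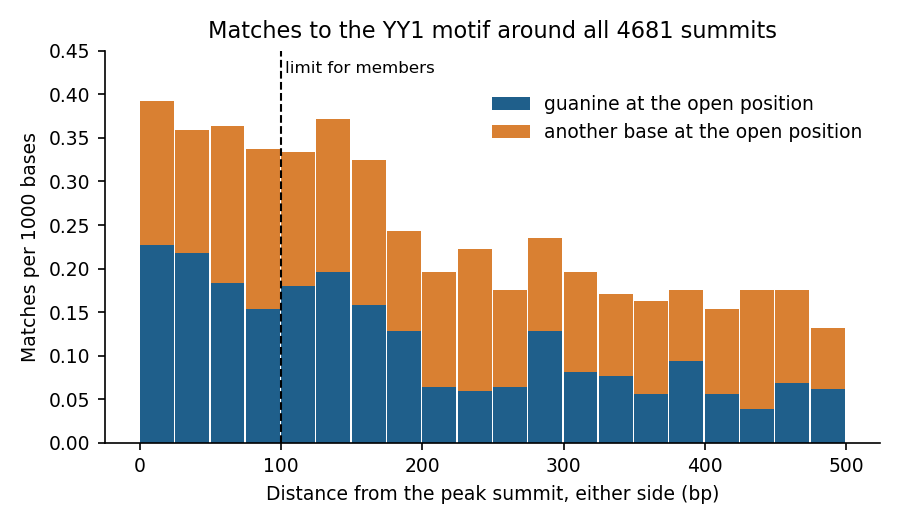
Frequency of matches to the YY1 motif per 1000 bases (y axis) against distance from the peak summit on either side in steps of 25 bp (x axis), over all 4681 peaks, split by the base at the open position. The dashed line marks the limit for members, and the frequency stays above 0.32 per 1000 bases up to 174 bp.

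Just inside the limit, with a match that needed the full 100 bp, stood peaks at Wrb with a fold enrichment of 7.10, at Ptcd3 with 5.13 and at Ndufb5 with 4.54. Just outside, with a match that needed 1 bp more, stood peaks at Kdm3a with 11.1, at Stk40 with 6.67 and at Ubr4 with 5.54. The 272 peaks whose nearest match lay beyond this limit but within 200 bp had a median fold enrichment of 5.10, and the members a median of 5.13.

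Most members had 1 match (295 of 310), 14 had 2 and 1 had 3, and no match was shared between members. The member with 3 lay at Cdk5rap2, which encodes a centrosomal protein (chr4:70410416-70410656). Its 3 matches read along the same strand and covered 185 bp, and it held 18 fragments (10.7 to 28.4) with a fold enrichment of 6.39. Among the members with 2 matches the highest were Tra2b, a splicing regulator, at 7.49, and Zfp207, which encodes a zinc-finger protein of the spindle, at 7.21. Zc3h6, which encodes a zinc-finger protein of the CCCH type, followed at 6.78 and the gene model B330016D10Rik at 6.72.

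The 15 members with several matches had a median fold enrichment of 5.92, and 13 of them (86.7%, 59.5% to 98.3%) reached at least 5. The 295 members with 1 match had a median of 5.13, and 167 (56.6%, 50.7% to 62.3%) reached 5. The intervals overlapped. The tandem pairs of B330016D10Rik, in a noncoding exon, and of Morf4l1, a chromodomain gene chosen after its values were seen, in an intron, are printed because both matches of each fall within 30 bases.
B330016D10Rik (chr4:141546666-141546694, minus strand): cAAAATGGCggccgcgctacAAAATGGCa
Morf4l1 (chr9:90113951-90113980, minus strand): ttgtAAGATGGCcgcggcAAGATGGCcgcg
In Morf4l1 the matches began 14 bp apart, and the peak reached 5.69 with 14 fragments (7.65 to 23.5). In B330016D10Rik they began 19 bp apart, and the peak held 19 fragments (11.4 to 29.7).

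Members lay close to start sites. The summit lay within 1000 bp of an annotated start site, here called a promoter, in 292 of 310 members, or 94.2% (91.0% to 96.5%). The same was true of 3679 of the 4368 other peaks, or 84.2% (83.1% to 85.3%). A further 7 members lay in gene bodies and 11 between genes. Summits lay at a median of 63.5 bp from the nearest start site in members and 129 bp in the other peaks. Within 100 bp of a start site lay 64.5% of the members (58.9% to 69.8%) and 42.4% of the other peaks (41.0% to 43.9%). In all, 418 annotated genes, 340 of them protein-coding, had a start site within 1000 bp of a member's summit. Protein-coding start sites on both strands lay within 1000 bp of 50 members, or 16.1% (12.2% to 20.7%), and of 10.3% of the other peaks (9.46% to 11.3%).

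The position of the match was compared with that of matches without a summit. In 155 of the 292 promoter members, or 53.1% (47.2% to 58.9%), the match nearest to the summit lay at the nearest start site or up to 100 bp downstream, and in 81 (27.7%, 22.7% to 33.3%) it lay upstream. From 0 to 25 bp downstream lay 89 members, and from 26 to 50 bp lay 41. Among matches within 100 bp of protein-coding start sites, 150 of the 200 with a summit lay 0 to 100 bp downstream, or 75% (68.4% to 80.8%). Of the 1583 without one 1120 did, or 70.8% (68.4% to 73.0%), and these intervals overlapped. By distance, a summit was present at 12.5% of the matches in the 50 bp upstream (8.67% to 17.1%), at 13.3% from 0 to 25 bp downstream (10.8% to 16.2%) and at 12.99% from 26 to 50 bp (9.44% to 17.3%). Farther out it was present at 7.03% from 51 to 100 bp upstream (4.22% to 10.9%) and at 7.83% from 51 to 100 bp downstream (5.18% to 11.3%).

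The orientation of the matches was unequal, at bound and at unbound sites. The match read along the strand of the nearest start site in 180 of 292 promoter members, or 61.6% (55.8% to 67.2%). Matches within 100 bp of protein-coding start sites did so in 959 of 1583 cases without a summit, or 60.6% (58.1% to 63.0%), which is inside the members' interval. Such matches with a summit did so in 131 of 200 cases, or 65.5% (58.5% to 72.1%), and this interval overlapped that of matches without one. The promoter members are a wider set, with matches farther out and at noncoding start sites. There a summit was present at 12.02% of the matches along the strand (10.1% to 14.1%) and at 9.96% of those against it (7.83% to 12.4%). From 0 to 25 bp downstream 66 of 89 read along it (74.2%, 63.8% to 82.9%), and from 26 to 50 bp 32 of 41 (78.0%, 62.4% to 89.4%). Of all matches at these distances from protein-coding start sites, bound or not, 454 read along the strand and 176 against it from 0 to 25 bp, and 203 and 105 from 26 to 50 bp. In the 50 bp upstream of the start site 8 of 30 read along it (26.7%, 12.3% to 45.9%), and of all matches at this distance from protein-coding start sites, bound or not, 90 read along the strand and 167 against it. The median position was 20.5 bp downstream for matches along the strand and 3 bp downstream for matches against it.

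By open base the orientation was as follows. With G, 120 of 156 promoter members (76.9%, 69.5% to 83.3%) had a match along the strand of the start site. With A the count was 22 of 64 (34.4%, 22.9% to 47.3%), with C 29 of 51 (56.9%, 42.2% to 70.7%) and with T 9 of 21 (42.9%, 21.8% to 65.98%). The interval of G did not overlap that of A or that of T, whereas those of G and C overlapped. Matches near protein-coding start sites without a summit read along the strand in 72.2% of 727 cases with G (68.8% to 75.4%), 47.5% of 343 with A (42.1% to 52.95%), 62.6% of 337 with C and 34.1% of 176 with T. For each base the interval of the members overlapped that of these matches. The median fold enrichment was 5.13 for matches along the strand and 5.34 for matches against it.

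**Figure D3:**
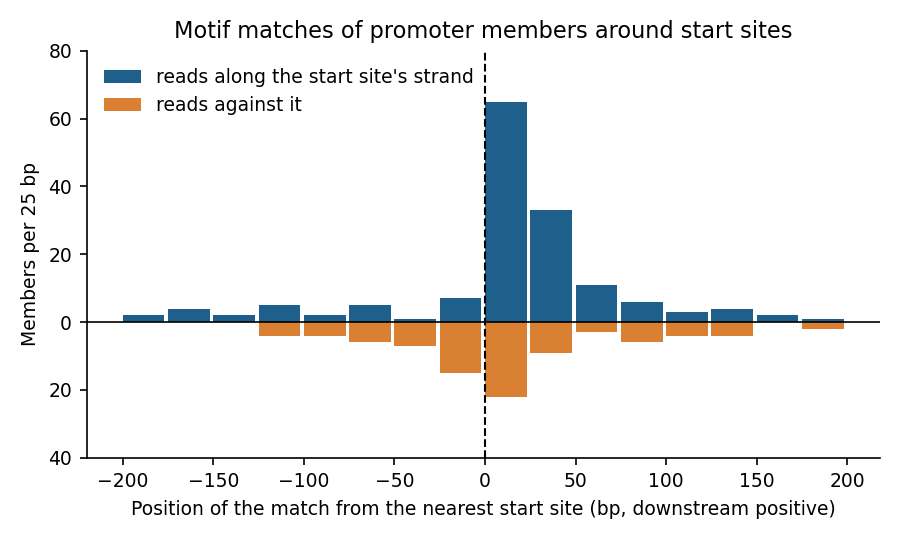
Number of promoter members per 25 bp (y axis) by the position of their match relative to the nearest annotated start site (x axis, downstream positive), for matches that read along the strand of the start site (upwards) and against it (downwards). The bar from 0 to 24 bp holds 65 members along the strand and 22 against it, and the next bar 33 and 9.

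In the GENCODE basic annotation the match nearest to the summit fell in a 5′UTR in 110 members, in coding sequence in 98, outside transcripts in 56, in an intron in 29, in a noncoding exon in 16 and in a 3′UTR in 1. In coding sequence 94 of 98 matches (95.9%, 89.9% to 98.9%) read along the gene, and in 5′UTRs 59 of 110 (53.6%, 43.9% to 63.2%).

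In 89 of the 310 members, or 28.7% (23.7% to 34.1%), the ATG of the match was an annotated start codon. These were 89 of the 94 matches that read along a gene in its coding sequence. The share was 39.9% (32.4% to 47.7%) with G at the open position, 10.1% (4.18% to 19.8%) with A, 25% (14.03% to 38.9%) with C and 9.52% (1.17% to 30.4%) with T, and the interval of C overlapped those of the other 3. In start-site matches without a summit it was 40.9% with G, 23.6% with A, 30.6% with C and 11.9% with T. Of the matches within 100 bp of protein-coding start sites that had no YY1 summit, 502 of 1583, or 31.7% (29.4% to 34.1%), also held a start codon. Of such matches with a summit, 77 of 200 did, or 38.5% (31.7% to 45.6%). These intervals overlapped, so a start codon in the match was not resolved as more frequent at bound sites. The members with a start codon in the match had a median fold enrichment of 5.05, and those without had 5.30.

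The start-codon members with the highest fold enrichment, next to those of Ccdc59 and Smg6 printed above, are shown because 1 run of bases serves as motif and as the beginning of a protein in each. The letters ATG in the capitals are the start codon.
Chrac1 (chr15:73090423-73090452, plus strand): gacggacgcggAAGATGGCggacgcggccg
Nipsnap2 (chr5:129725131-129725160, plus strand): ggctccggagcAAGATGGCggcgcgggtgt
Ranbp3 (chr17:56673376-56673405, plus strand): cttaaggaagtAAAATGGCggacctggcga
Ubxn7 (chr16:32332274-32332303, plus strand): gcggcggcggtAAGATGGCtgcccacgggg
Gbe1 (chr16:70314139-70314168, plus strand): ctgctgcggcgAAGATGGCggcgccggcgg
Iba57 (chr11:59163676-59163705, minus strand): acttagcgcccAAGATGGCagcggtggcgc
Chrac1, a histone-fold subunit of chromatin remodelling complexes, reached a fold enrichment of 7.73 with 22 fragments (13.8 to 33.3), and its start codon lay 45 bp downstream of the start site. Ranbp3, a cofactor of nuclear export, reached 7.39 with 21 fragments and had A at the open position. Ubxn7, an adaptor of the p97 ATPase, and Gbe1, the glycogen branching enzyme, both reached 7.06 with 20 fragments. Iba57, a mitochondrial protein of iron-sulphur cluster assembly, reached 7.04 with 18 fragments. In each of these the start codon lay within 50 bp of the start site.

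The same question was asked from the side of the sequence. Within 100 bp of protein-coding start sites the reference held 1783 matches to the full motif, and 200 of these, or 11.2% (9.79% to 12.8%), had a YY1 summit whose window held the match. Of 6950 sites with the core ATGGC but neither of the A bases in front, 419 had one, or 6.03% (5.48% to 6.61%). Of 4243 sites with 1 of both A bases, 177 had one, or 4.17% (3.59% to 4.82%). By the open base the share of full matches with a summit was 13.7% for G (11.4% to 16.2%), 10.4% for A, 8.67% for C and 6.88% for T (3.71% to 11.5%).

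GC content moved with these shares. The median GC content of the 100 bp on either side of the match was 69.2% at matches with a summit and 60.2% at matches without one. Where GC content was under 49.3%, 0 of 372 full matches had a summit, which allows a share of up to 0.987%. From 49.3% to under 57.7% the share was 4.49% of 312 full matches (2.47% to 7.41%) and 1.06% of 1598 cores without either A (0.621% to 1.70%). From 57.7% to under 66.7% it was 11.3% (8.68% to 14.4%) against 6.41% (5.33% to 7.62%). From 66.7% upwards it was 21.7% (18.4% to 25.2%) against 14.0% (12.5% to 15.6%). In the 3 upper ranges of GC content the full motif thus had the higher share, by more than the counting intervals. The flanking bases were not held equal in this comparison. The part of GC content in these shares was not tested.

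The flanking bases moved with the share too. A summit was present at 8 of 517 full matches with 0 or 1 of the 5 bases named above, or 1.55% (0.670% to 3.03%). It was present at 100 of 800 with 2 or 3 (12.5%, 10.3% to 14.99%) and at 92 of 466 with 4 or 5 (19.7%, 16.2% to 23.7%). Where GC content was under 57.7% these shares were 0 of 406 (up to 0.904%), 8 of 238 (3.36%, 1.46% to 6.52%) and 6 of 40 (15%, 5.71% to 29.8%). At a GC content of 57.7% or more they were 8 of 111 (7.21%, 3.16% to 13.7%), 92 of 562 (16.4%, 13.4% to 19.7%) and 86 of 426 (20.2%, 16.5% to 24.3%). Taken singly, the share was 21.9% of 334 with 4 of the bases (17.5% to 26.7%) and 14.4% of 132 with all 5 (8.89% to 21.6%). For cores without either A it was 2.87% of 1220 with none, 14.0% of 242 with 4 (9.93% to 19.1%) and 10% of 30 with all 5 (2.11% to 26.5%). With none, 1 and 3 of the bases the full motif had 1.05%, 1.84% and 13.3%, and these cores 2.87%, 3.86% and 12.4%. With 2 of the bases the full motif had 11.5% (8.39% to 15.3%) and these cores 6.76% (5.70% to 7.95%). Only with 2 of the bases did the intervals of both not overlap. The bases were chosen from the members, which include the matches counted here, so these shares are a description.

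**Figure D4:**
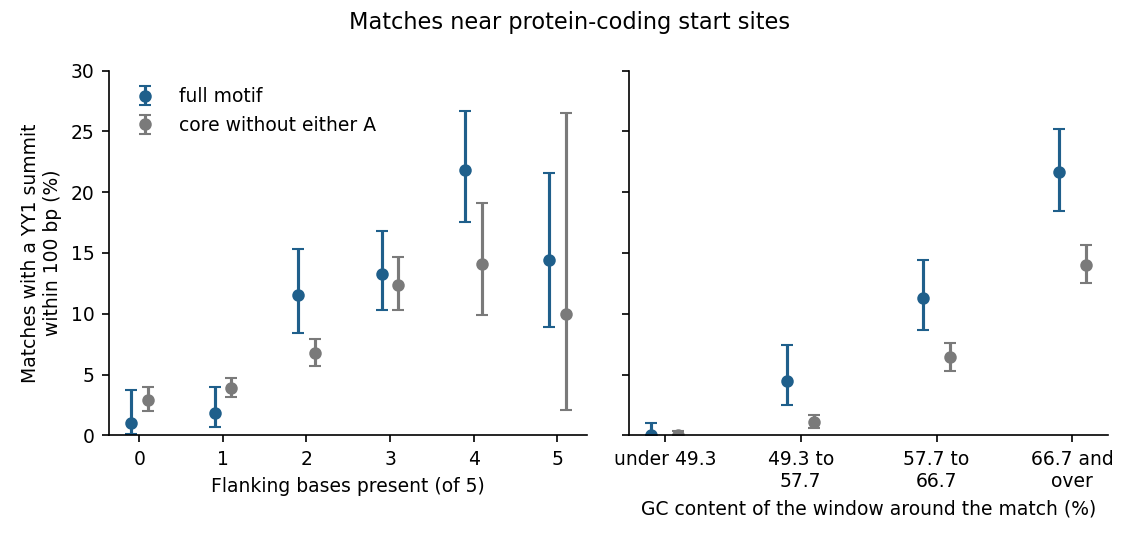
Share of sites near protein-coding start sites with a YY1 summit within 100 bp (y axis, percent) by the number of the 5 flanking bases present (left) and by GC content of the 100 bp on either side of the site (right), for the full motif (blue) and the core without either A (grey). Bars are 95% exact binomial intervals, and in the 3 upper ranges of GC content the blue points lie above the grey ones, at 21.7% against 14.0% in the highest. On the left the blue points lie below the grey ones with 0 or 1 of the bases.

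By start site, 2441 of 41488 windows centred on protein-coding start sites held the motif, or 5.88% (5.66% to 6.11%), beside 6.63% (5.93% to 7.38%) of the 4678 peaks with a complete window. Of the equal windows 2000 bp from the summits, 321 of 9235 held it, or 3.48% (3.11% to 3.87%). A summit lay within 100 bp of 354 of the 2441 start sites with the motif, or 14.5% (13.1% to 16.0%), and of 2531 of 39047 without it, or 6.48% (6.24% to 6.73%). Neighbouring start sites of 1 gene share sequence and peaks, so these counts are not independent. Of the RefSeq promoter sequences, which run from 250 bp upstream to 50 bp downstream, 1988 of 32851, or 6.05%, held the motif.

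Other promoter motifs were searched as exact letters on both strands in the same summit windows. The ETS motif (CCGGAAG) was present in 48 members, or 15.5% (11.6% to 20.0%), in 11.4% of the other peaks (10.5% to 12.4%) and in 9.11% of the windows at protein-coding start sites. The NRF1 motif (GCGCATGC) was present in 6.77% of the members (4.24% to 10.2%) and in 4.72% of the other peaks, and the BANP motif (TCTCGCGA) in 3.23% (1.56% to 5.85%) and 1.51%. In all 3 cases the members' intervals overlapped those of the other peaks.

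The SP/KLF motif (GGGCGGG) was about equally frequent, in 36.8% of the members and 37.3% of the other peaks, and at 27.4% of the start sites. NFY (CCAAT) was found in 16.1% of the members and 15.9% of the other peaks, below its 25.4% at start sites, and in 2 of the 50 members its letters only overlapped the YY1 match. The E-box (CACGTG) was found in 7.42% and 6.73%, and the CRE (TGACGTCA) in 1.61% and 2.31%. The TATA box (TATAAA) was present in 2 members, or 0.645% (up to 2.31%), in 1.85% of the other peaks and at 7.20% of the start sites. The ZNF143/THAP11 letters ACTACA were present in 6 members, or 1.94% (0.714% to 4.16%), in 4.60% of the other peaks (4.00% to 5.27%) and at 6.36% of the start sites. A match of letters is a description and not a bound site.

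The genes at the members were grouped by lists of gene families, with a gene counted when a summit lay within 1000 bp of any of its start sites. Of all protein-coding genes with such a peak, 340 of 4119 had one with the motif, or 8.25% (7.43% to 9.14%). Among genes of oxidative phosphorylation, which build the respiratory chain and ATP synthase, the count was 9 of 36, or 25% (12.1% to 42.2%). They were Atp5f1, Atp5g1, Atp5h, Ndufa6, Ndufb5, Ndufc1, Ndufs1, Uqcrc1 and Uqcrh. The highest were Uqcrh, a hinge protein of complex III, at a fold enrichment of 7.0 with 17 fragments, and Ndufa6, a subunit of complex I, at 6.70 with 16 fragments. The Uqcrh peak is shared with Lrrc41, whose start codon lies in the match, whereas in Ndufa6 the match held the start codon of the gene itself. The peak of Ndufb5 is also counted for Mrpl47 below, and that of Ndufs1 for the translation factor Eef1b2.

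Among genes of the ubiquitin pathway 11 of 62 had a motif-bearing peak, or 17.7% (9.20% to 29.5%), led by Ube2j2, a conjugating enzyme of the endoplasmic reticulum, at 7.49 with 18 fragments, and the deubiquitinase Usp10 at 5.93 with 15. The lists of vesicle coats and trafficking gave 9 of 61 (14.8%, 6.98% to 26.2%), with Rab1a, a GTPase of transport from the endoplasmic reticulum to the Golgi, at 7.78 with 20 fragments and Rab28 at 6.31 with 15. Splicing factors and snRNPs gave 7 of 48 (14.6%, 6.07% to 27.8%), with Srsf1, an SR protein, at 6.39 with 18 fragments and Lsm7, a subunit of the Lsm ring, at 6.30 with 16. This count includes Lsm14a and Lsm14b, which act on mRNA in the cytoplasm.

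RNA polymerases, general factors and Mediator gave 6 of 44 (13.6%, 5.17% to 27.4%), with Polr2m at 6.39 and Polr1a, the largest subunit of RNA polymerase I, at 5.13. Proteasome subunits gave 3 of 22 (13.6%, 2.91% to 34.9%), with Psma4 and Psmd8 both at 4.04. Cytosolic ribosomal proteins gave 5 of 40 (12.5%, 4.19% to 26.8%), with Fau at 6.76 and Rpl30 at 5.52. Mitochondrial ribosomal proteins gave 3 of 29 (10.3%, 2.19% to 27.4%), with Mrpl49, whose peak is the one counted for Fau, at 6.76 and Mrpl58 at 6.70. Translation initiation and elongation factors gave 3 of 35 (8.57%, 1.80% to 23.1%), among them Eif3e, a subunit of initiation factor eIF3, at 4.04. The highest of the 3, Eef1akmt4 at 5.04, entered the list by its name and encodes a methyltransferase that modifies an elongation factor, not a translation factor. The intervals of these 5 lists, and those for trafficking and splicing, held the 8.25% of all genes with a promoter peak.

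The remaining lists lay at or below that level. Zfp zinc-finger genes gave 6 of 90 (6.67%, 2.49% to 13.9%), led by Zfp207 at 7.21 and Zfp592 at 6.93. Histone lysine modifiers gave 2 of 31, Kmt2e at 5.40 and Kansl2 at 3.78, and genes of the cell cycle and replication origin gave 2 of 31, Cdk5rap2 at 6.39 and Cdk17 at 4.25. Chaperones gave 2 of 37, Dnajc11 at 6.81 with 26 fragments and Dnajc30 at 3.53. No motif-bearing promoter peak was found among 9 bound aminoacyl-tRNA synthetase genes, 6 bound INO80 genes, 8 bound genes of the YY1 family and Polycomb partners, 5 bound muscle stem cell and myogenic genes, 1 imprinted or X inactivation gene or 1 chemokine gene. These counts are too small to show a share below 8.25%.

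**Figure D5:**
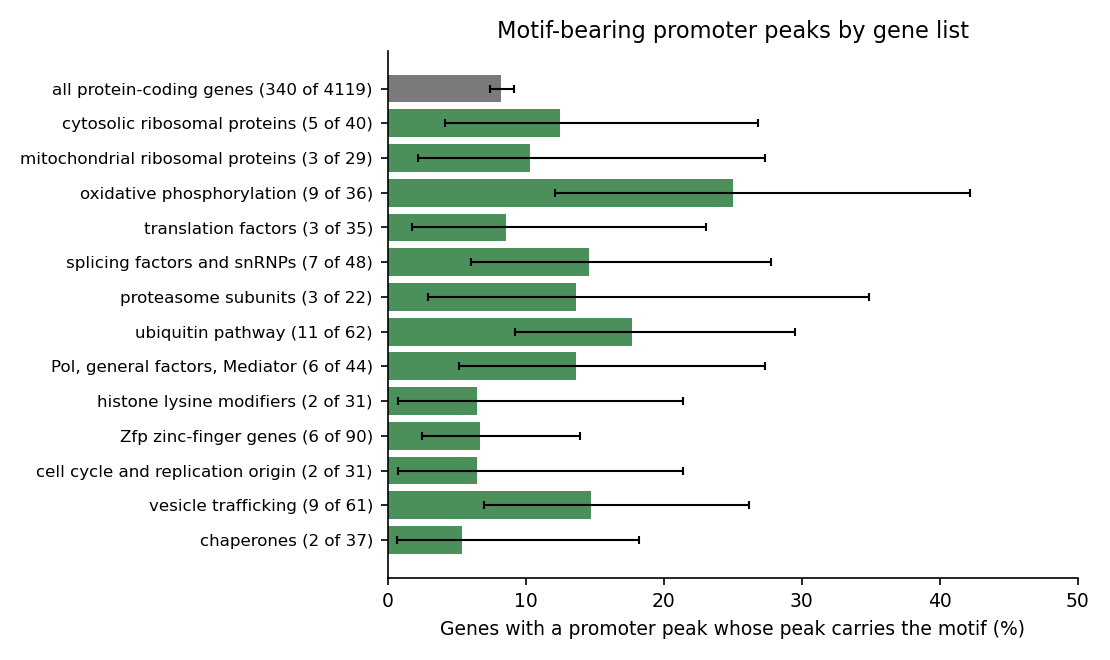
Share of genes with a promoter peak whose peak carries the YY1 motif (x axis, percent) for gene lists with at least 20 genes with a promoter peak, with 95% exact binomial intervals and the counts beside each name, and for all protein-coding genes (grey). Oxidative phosphorylation stands at 25%, and its interval is the only one besides that of the ubiquitin pathway that lies above the 8.25% of all genes.

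Yy1 itself carried a member. Its peak (chr12:108793675-108794517) had its match in an intron, 1263 bp downstream of the start site and along the gene, and its summit was outside the promoter window.
Yy1 (chr12:108794222-108794251, plus strand): ggcgggccgcgAAGATGGCggcgcggggga
The peak held 19 fragments (11.4 to 29.7) over a local background of 1.98, with a fold enrichment of 6.72 and 4 of the 5 flanking bases. A second peak with its summit 211 bp upstream of the Yy1 start site had 17 fragments (9.90 to 27.2) over 3.95, a fold enrichment of 3.64 and no match. The intervals of both fragment counts overlapped. Taf15 had a peak 1304 bp downstream of its start site with 9 fragments (4.12 to 17.1), a fold enrichment of 3.71 and no match, and Ccl5 had no peak within its gene or 1000 bp around it.

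The 18 members outside promoters included, besides Yy1, peaks whose nearest start sites belong to Gm46404, Rnase12, Nr3c1 and Gm17619. The peak whose match lay 7489 bp upstream of the Gm46404 start site (chr13:23453404-23453662) was the highest of these, with 20 fragments (12.2 to 30.9) and a fold enrichment of 7.66. The peaks near Rnase12, Nr3c1, which encodes the glucocorticoid receptor, and Gm17619 each had 14 fragments (7.65 to 23.5) and a fold enrichment of 5.92. The intergenic matches printed here had 2, 3 and 2 of the 5 flanking bases.
Gm46404 (chr13:23453410-23453439, plus strand): tttggttttaaAAGATGGCagttgtcagga
Rnase12 (chr14:51063950-51063979, minus strand): cgcccaaaacaAAGATGGCagcggtgggat
Gm17619 (chr2:170221191-170221220, plus strand): atggacctagcAAGATGGCattttatctct
The median GC content of the window was 51.2% in the 11 intergenic members and 69.4% in the 292 promoter members. The median fold enrichment was 4.73 in intergenic members, 4.45 in the 7 gene-body members and 5.19 in promoter members. The lowest member of all, at chr15:75086723-75086977, had 325 fragments (290.6 to 362.3) over 217 in the background, a fold enrichment of 1.49, and 61.8% of the 32-base stretches in its window are repeated.

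By chromosome, members were found on 20 of the 21 chromosomes with peaks. The share of peaks with the motif ran from 3.31% of 151 peaks on chromosome 14 to 14.7% of 34 peaks on chromosome X (4.95% to 31.1%), and 0 of 9 peaks on chromosome Y carried it, which allows a share of up to 33.6%. The interval for chromosome X held the 6.63% of all peaks.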

How the data were processed

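YY1 ChIP-seq was performed with 1 YY1 library and 1 background library of MuSCs. Per the methods, the authors aligned trimmed and filtered reads to mm10 with Bowtie2, removed redundant ones and ran MACS2 with a p-value limit of 0.0001. The deposited peak list gives a fold enrichment (ratio over local background), −log10 p-values and −log10 q-values. The integer score in the deposited list, also written by the authors' peak caller, was not used. The authors' summit offset gave each summit.

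Fragments and local background were recovered from the deposited fold and p-value, within 0.0003 of every −log10 p. The motif was searched in mm10 (GRCm38) on both strands, and peaks were placed by GENCODE M21 basic start sites. The preset genome size of MACS2 and the narrowest peak, 215 bp, gave the depth. Windows were called repeated when at least 50% of their 32-base stretches occur elsewhere in the assembled chromosomes. RefSeq (GRCm38) supplied promoter sequences. Shares have exact Clopper-Pearson intervals and fragments exact Poisson intervals, at the 95% level. No test was run, since nothing was replicated.

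Members and gene lists were chosen with earlier results of these data known. Named genes were the 10 members with the highest fold enrichment, up to 5 with the most matches, the 5 highest outside promoters, the 8 highest with a start codon in the match, the 2 highest of each gene list, the 3 nearest the limit on either side, and Yy1, Ccl5 and Taf15. Naca, Morf4l1, Lrrc41 and the lowest member were named after their values were seen. Alternatives changed peak limits, windows, motif forms, start sites and the matches counted. Motif search, fragment recovery and intervals were tested on simulated data. Software was samtools 1.23.1, matplotlib 3.10.9, pysam 0.24.0 and scipy 1.17.1, with pandas 2.3.3 and numpy 2.4.6 under Python 3.11.15.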

Additional observations from a re-analysis of the deposited data

How the results depend on the processing

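Of 58 alternatives to the 7 main values, 47 stayed within 1.5 times the number of members or within the interval of the share. The number of members, 310, was 180 where the fold had to reach 5, 162 with a window of 50 bp, 582 with 200 bp, 607 over the whole peak and 169 with G fixed at the open position. The share of summits in promoters, 94.2%, was 88.7% with a promoter of 500 bp and 81.3% with 1000 bp upstream to 100 bp downstream. The share with G at the open position, 54.2%, was 59.9% with a window of 50 bp. With G fixed, the share of matches along the start site's strand was 77.1%, the share 0 to 100 bp downstream 61.8% and the share with a start codon 39.6%. Leaving out windows repeated over at least 50% of their length, which was added after the data were seen, left 302 members and moved no share past these limits, nor did the comprehensive annotation, also added then, move the start-codon share (29.0%). Members had as few as 9 fragments at the summit, and the effect of depth on the list was not tested. No paired analysis was possible because each antibody has 1 library.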
